A study of Mus musculus with 4 samples.

Results

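The genes described here are the nuclear-encoded genes of oxidative phosphorylation in Th17 cells of the mouse, a kind of helper T cell named for its interleukin 17. They were taken by a rule on gene names, as protein-coding genes of the Ndufa, Ndufb, Ndufc, Ndufs and Ndufv, Sdha to Sdhd, Uqcr, Cox4 to Cox8 and Atp5 families. This gave 93 of the 52636 genes in the table, of which 85 had a mean of at least 1 FPKM and entered the test. FPKM is the number of fragments scaled by the length of the gene and the library total. The deposited gene length can far exceed the coding sequence, with 6883 bases against 468 for Ndufab1 and 702 against 336 for Cox6a1. Levels, sums and shares compared between genes therefore rest on that length, and the most abundant gene below is that of highest FPKM. A gene compared between libraries keeps the same length. The 93 genes were 36 subunits of complex I, 8 of its assembly factors, 4 subunits of complex II, 8 of complex III, 20 of complex IV, 15 of complex V, and Atp5s and Atp5sl, which are named after complex V and were kept apart. Ndufa4 was counted with complex IV, where the protein is now placed despite its name.

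Oxidative phosphorylation takes place in the inner mitochondrial membrane. Complexes I and II pass electrons from NADH and succinate to ubiquinone, complex III passes them to cytochrome c, and complex IV passes them to oxygen. Complexes I, III and IV pump protons, and complex V uses the proton gradient to make ATP. Most subunits are encoded in the nucleus and a few, at the heart of complexes I, III, IV and V, in mitochondrial DNA. Activated T cells expand their mitochondria as they grow, and respiration is known to be used by Th17 cells beside glycolysis.

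Naive cells of C57BL/6 mice, labelled PP2A WT or PP2A cKO, had been cultured with irradiated autologous antigen presenting cells, 3 per naive cell. Polarization lasted 2 days in anti-CD3 and anti-CD28 at 2 µg/ml each, TGFβ1 at 2 ng/ml, IL-6 at 20 ng/ml, and antibodies to IL-4 and IFNγ at 10 µg/ml each. PMA at 50 ng/ml and ionomycin at 500 ng/ml were then given for 4 h to all cells, so that both genotypes were measured in the restimulated state. PP2A is a serine/threonine phosphatase; the labels name neither the subunit deleted, nor the Cre driver, the age of the mice or how mice and cultures were separated. There were 2 libraries per genotype, and the spread that the p-values rest on is that between these libraries, which may be technical.

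The libraries held 18517487 to 20387948 gene-assigned reads. Ppp2ca, the main catalytic gene of PP2A, had 42.2 and 50.1 FPKM in WT and 41.8 and 34.5 FPKM in cKO and was not called (limma, adjusted p = 0.36), so genotypes rest on the labels. All 6 T cell markers and all 5 Th17 markers were above 1 FPKM, the Th17 sum being 3810 and 4150 FPKM in WT and 2940 and 3040 in cKO, and the T cell sum 758 and 813 in WT and 1070 and 1180 in cKO. The 7 B cell markers summed to 0.401 to 0.803 FPKM, the 7 myeloid markers to 3.76 to 5.82, the 5 dendritic markers to 0.359 to 0.521 with Clec9a and Siglech at 0, and the 3 NK markers to 0.117 to 0.236 with Ncr1 and Klrb1c at 0. The 2 CD8 T cell genes summed to 7.61 to 10.2 FPKM and the 3 erythroid genes to 0.274 to 1.09. The part of these cells in the results was not tested. The 2 cKO libraries differed from each other. Across 10550 genes, the difference of cKO replicate 1 from WT correlated with transcript GC content (Spearman rho = -0.384), and that of cKO replicate 2 did not to the same degree (rho = 0.0347). For this reason each cKO library is also given apart. In bulk RNA, fewer cells of a kind and less RNA per cell cannot be told apart.

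The transcripts were abundant, and no gene of the 85 tested passed the test between genotypes. The median level was 43.0 FPKM, against 8.82 FPKM over all 10562 tested genes. The test was limma on log2(FPKM + 1), two-sided, with adjusted p under 0.05 over all tested genes, and it called 113 of these, 1.07%, with 0.814% higher and 0.256% lower in cKO. At an unadjusted p under 0.05, which 19.8% of all tested genes met, limma gave 2 of the 85, Cox7a1 higher and Uqcrfs1 lower. limma with voom weights on reads recovered from the FPKM values also called 0 of them and 5.14% of all tested genes. The median log2 fold change was 0.07, against -0.00 over all tested genes. When FPKM was rescaled to a common total per library (TPM), it was -0.02, against -0.09 over all tested genes. Fold changes as TPM given below are to be read beside this -0.09. The 95% interval lay within a doubling and a halving (±1 on the log2 scale) for 82 of 85 genes, the exceptions being Ndufa3, Cox7a1 and Cox7c.

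**Figure D1:**
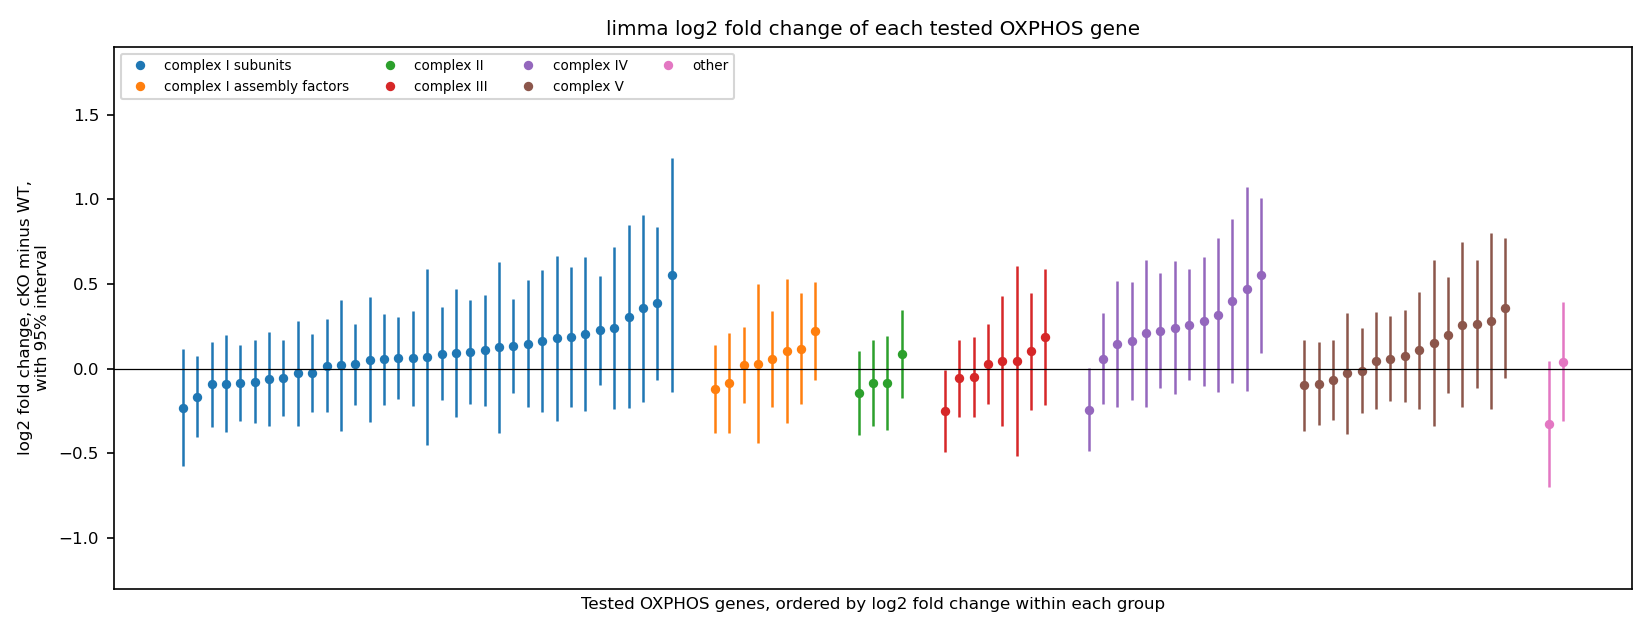
limma log2 fold change of cKO against WT on the log2(FPKM + 1) scale (vertical axis) with its 95% interval for the 85 tested genes, ordered within each complex (horizontal axis); colours mark the complexes. Of complex IV 12 of 13 genes lie above 0 and of complex II 1 of 4, against 5221 of all 10562 tested genes. The intervals of 82 genes stay within ±1.

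The 2 cKO libraries stood on different sides of WT for many of these genes. The median difference from the WT mean was 0.23 in cKO replicate 1 and -0.03 in cKO replicate 2, on the log2(FPKM + 1) scale. cKO replicate 1 was above both WT libraries for 59 of 85 genes (69.4%, against 43.2% of all tested genes) and below both for 16 (18.8%, against 44.4%). cKO replicate 2 was below both WT libraries for 45 (52.9%, against 41.6% of all) and above both for 19 (22.4%, against 40.5%). Both cKO libraries were above both WT libraries for 17 genes (20.0%, against 27.2% of all) and below both for 14 (16.5%, against 28.7%), so that for most members the genotypes overlapped. cKO replicate 1 exceeded cKO replicate 2 for 73 of 85 genes (85.9%, against 50.6% of all). The WT libraries also differed in 1 direction, with replicate 2 above replicate 1 for 67 genes (78.8%, against 48.3%). Together the 93 genes took 0.896 and 0.94% of the reads in WT, 0.997% in cKO replicate 1 and 0.878% in cKO replicate 2, so the cKO values lay on either side of the WT range.

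**Figure D2:**
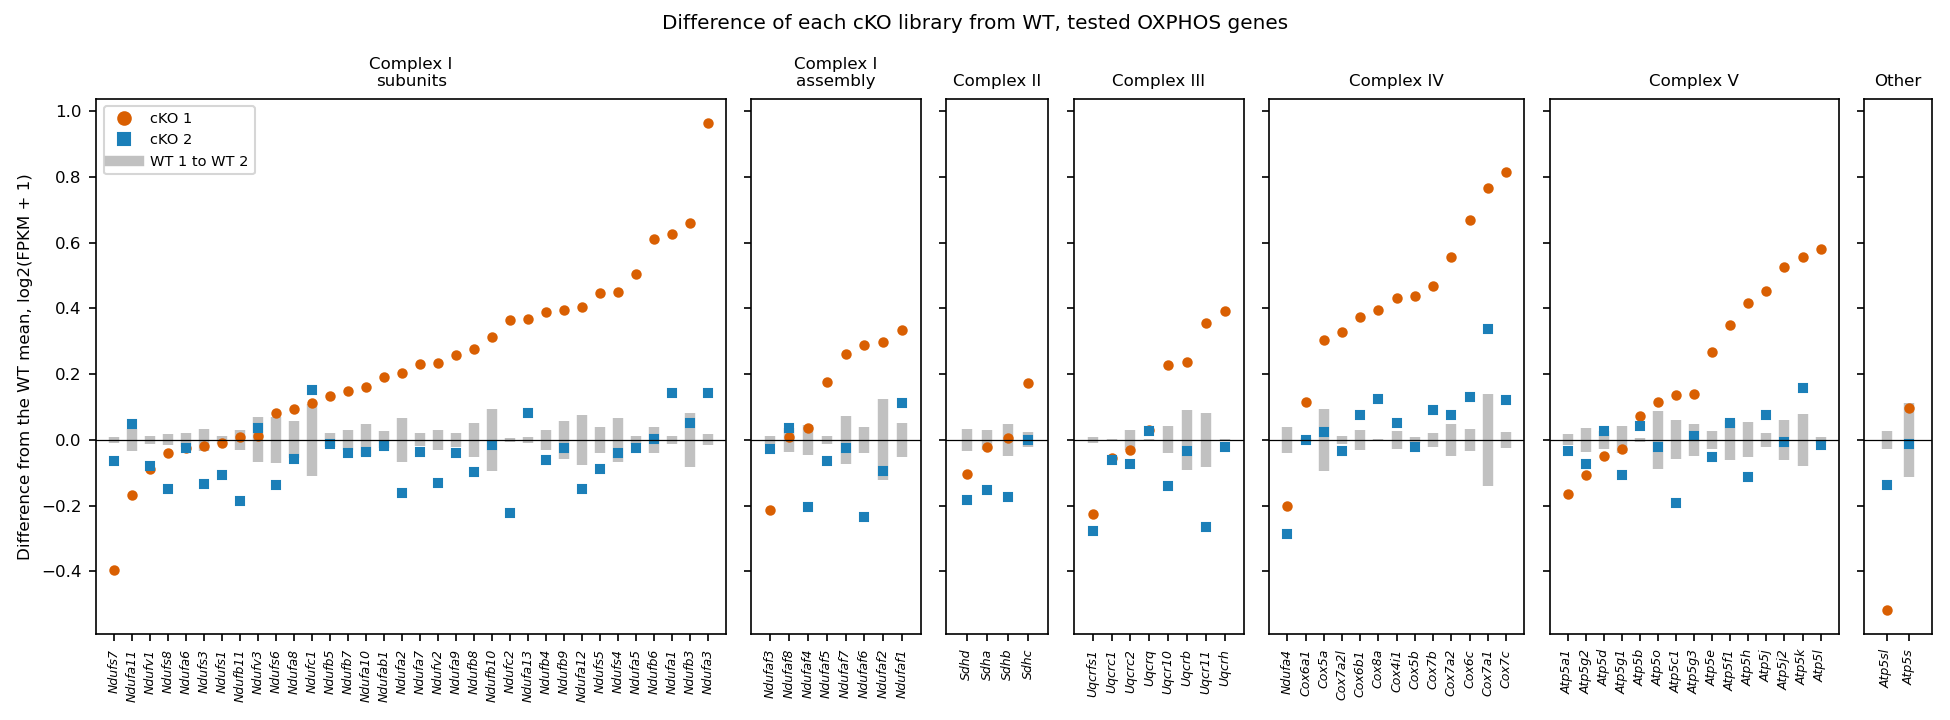
Difference of each cKO library from the WT mean on the log2(FPKM + 1) scale (vertical axis) for each tested gene but 1 (horizontal axis), by complex; the grey bars span the 2 WT libraries. The points of cKO replicate 1 reach 0.96 for Ndufa3, while those of cKO replicate 2 stay between -0.29 and 0.34.

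Complex I, the NADH dehydrogenase, is the largest of the complexes, with a catalytic arm that holds the flavin and iron-sulfur centres and many small accessory subunits around it. Of its 36 nuclear subunits 35 were tested and none passed (lowest adjusted p = 0.31, limma). Their median log2 fold change was 0.07, with 0.20 in cKO replicate 1 and -0.04 in cKO replicate 2. As TPM the median was -0.02, against -0.09 over all tested genes. The 7 nuclear-encoded core subunits and the other subunits, a grouping made after the values were seen, had different values. The core had a median of -0.08, with -0.04 in cKO replicate 1 and -0.12 in cKO replicate 2. cKO replicate 2 was below both WT libraries for all 7 core genes (100%, against 41.6% of all tested genes), and both cKO libraries were below both for 4 of 7 (57.1%, against 28.7% of all). The 28 other tested subunits had a median of 0.10, with 0.27 in cKO replicate 1 and -0.03 in cKO replicate 2. For 24 of them cKO replicate 1 was above both WT libraries (85.7%, against 43.2% of all tested genes). Median GC content was 54.1% in the core and 50.8% in the other subunits. After removal of the trend with GC content in each library, the core medians were 0.06 in cKO replicate 1 and -0.13 in cKO replicate 2. Those of the other subunits were 0.22 and -0.03. With the trend with gene length removed as well, cKO replicate 1 had -0.04 in the core and 0.22 in the others. The part of GC content in this contrast was not tested. As TPM the core medians were -0.16 and -0.19 in the 2 cKO libraries and those of the other subunits 0.16 and -0.10. Over all tested genes they were -0.12 and -0.07.

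Ndufs7 (ENSMUSG00000020153), which carries the last iron-sulfur cluster before ubiquinone, had 42.5 and 42.0 FPKM in WT and 31.9 and 40.4 FPKM in cKO. Its log2 fold change, the lowest of complex I, was -0.23 ± 0.14 (SE, n = 2 per genotype, adjusted p = 0.396, limma). Most of the difference lay in cKO replicate 1, at -0.40 from the WT mean against -0.06 in cKO replicate 2. After removal of the trends with GC content and gene length these values were -0.21 and -0.10. Ndufv1, the subunit that binds NADH and flavin, had 36.7 and 37.4 FPKM in WT and 34.8 and 35.0 in cKO. Ndufs1, the largest core subunit, had 8.17 and 8.02 FPKM in WT and 8.04 and 7.45 in cKO, with overlap between the genotypes.

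The small accessory subunits held the other end of the range. Ndufa3 (ENSMUSG00000035674, chromosome 7, 3617373 to 3620327, GRCm38) had 44.6 and 45.7 FPKM in WT, 89.0 in cKO replicate 1 and 49.9 in cKO replicate 2. The genotypes did not overlap, but the 2 cKO libraries lay far apart, and limma gave a log2 fold change of 0.55 ± 0.27 with an adjusted p of 0.33. Ndufa1, a small membrane subunit encoded on the X chromosome and the most abundant transcript of complex I, had 104.5 and 106.3 FPKM in WT and 163.4 and 116.4 FPKM in cKO. Its log2 fold change was 0.38 ± 0.18 (adjusted p = 0.31, limma). After removal of the GC and length trends, the difference of cKO replicate 1 from WT went from 0.63 to 0.33 for Ndufa1. For Ndufa3 it went from 0.96 to 0.82. Summed over the 36 genes, complex I had 1399 and 1461 FPKM in WT, 1740 in cKO replicate 1 and 1379 in cKO replicate 2, so that the cKO libraries bracketed WT.

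The 8 Ndufaf assembly factors, which build complex I and are not part of it, were expressed far lower, at a median of 7.61 FPKM against 39.2 FPKM for the subunits. None passed, and their median log2 fold change of 0.04 (-0.05 as TPM) split into 0.22 in cKO replicate 1 and -0.05 in cKO replicate 2. Ndufaf1, which binds an early membrane intermediate, had 14.7 and 15.9 FPKM in WT and 19.5 and 16.6 in cKO, both cKO values above both WT values (0.22 ± 0.11, adjusted p = 0.343, limma). Ndufaf3 had 5.27 and 5.36 FPKM in WT and 4.45 and 5.20 in cKO, both below WT. Ndufaf8, the most abundant of them, had 20.9 and 19.8 FPKM in WT and 20.5 and 20.9 in cKO, with full overlap.

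Complex II, succinate dehydrogenase, is the only complex with no mitochondrially encoded subunit and is also an enzyme of the TCA cycle. None of its 4 genes passed, and their median log2 fold change was -0.09, with -0.01 in cKO replicate 1 and -0.16 in cKO replicate 2. As TPM the median was -0.18, against -0.09 over all tested genes. Sdha, which binds flavin and oxidizes succinate, had 43.1 and 45.1 FPKM in WT and 43.4 and 39.6 in cKO. Sdhb, the iron-sulfur subunit, had 39.4 and 42.2 FPKM in WT and 41.0 and 36.0 in cKO. For both, cKO replicate 1 lay within the WT range and cKO replicate 2 below it. Sdhc, a membrane anchor, was the least abundant at 17.5 and 16.9 FPKM in WT and 19.5 and 17.2 in cKO. Sdhd, the other anchor (ENSMUSG00000000171, chromosome 9, 50596357 to 50603812), was the most abundant at 61.0 and 64.1 FPKM in WT and 58.1 and 54.9 FPKM in cKO. Its log2 fold change was -0.14 ± 0.10 (limma, adjusted p = 0.443), with both cKO libraries below both WT libraries. This held for 1 of the 4 genes (25.0%, against 28.7% of all tested genes). Both cKO libraries were above both WT libraries for 0 of the 4 (against 27.2% of all).

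Of the 8 genes of complex III, the cytochrome bc1 complex, none passed (lowest adjusted p = 0.238, limma). Their median log2 fold change was 0.04, with 0.13 in cKO replicate 1 and -0.07 in cKO replicate 2. It was -0.06 as TPM and -0.02 after quantile normalization, against -0.09 and -0.01 over all tested genes. Among its large subunits, the core protein Uqcrc1 had 39.98 and 40.1 FPKM in WT and 38.5 and 38.3 in cKO, and Uqcrc2 had 55.5 and 53.2 FPKM in WT and 53.1 and 51.6 in cKO. Both cKO libraries were below both WT libraries for each, at differences from the WT mean of -0.07 to -0.03 on the log2 scale.

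Uqcrfs1 encodes the Rieske iron-sulfur protein, the subunit that takes electrons from ubiquinol (ENSMUSG00000038462, chromosome 13, 30540308 to 30545362). It had 117.2 and 118.6 FPKM in WT and 100.6 and 97.2 FPKM in cKO, or 117.9 ± 0.98 and 98.9 ± 2.42 (SD, n = 2 each). Here the 2 cKO libraries lay close together and well below both WT libraries. The log2 fold change was -0.25 ± 0.09 with an unadjusted p of 0.0437, and it did not pass over all genes (limma, adjusted p = 0.238). Over the alternatives the fold change ranged from -0.35 to -0.23 and the adjusted p from 0.0391, without cKO replicate 2, to 0.872. Of the smaller subunits, Uqcrb, Uqcrh, Uqcr10 and Uqcr11 were above both WT libraries in cKO replicate 1 and not in cKO replicate 2, and Uqcrq was above in both. Uqcrh, the hinge protein that contacts cytochrome c1, had 61.3 and 61.7 FPKM in WT, 81.1 in cKO replicate 1 and 60.5 in cKO replicate 2. Uqcr10, the most abundant, had 110.2 and 116.7 FPKM in WT, 133.0 in cKO replicate 1 and 102.8 in cKO replicate 2, so cKO libraries lay on both sides of WT. Cyc1, which encodes cytochrome c1 and lies outside the name rule, had 140.5 and 140.6 FPKM in WT and 99.0 and 124.2 in cKO (-0.34 ± 0.14, adjusted p = 0.266, limma). Its adjusted p was 0.0126 without cKO replicate 2, within a range of 0.0126 to 0.835.

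Complex IV, cytochrome c oxidase, had the highest median of the complexes. Its catalytic subunits are encoded in mitochondrial DNA, and the nuclear genes make the subunits around them, several of which have tissue-specific paralogs. Of 20 genes 13 were tested and none passed (lowest adjusted p = 0.19, limma). Their median log2 fold change was 0.24, with 0.43 in cKO replicate 1 and 0.07 in cKO replicate 2. A positive value was found for 12 of 13, against 60 of 85 members and 5221 of all 10562 tested genes. The median was positive under every scaling tried, with 0.15 as TPM and 0.16 after quantile normalization. Both cKO libraries were above both WT libraries for 8 of 13 genes (61.5%, against 27.2% of all tested genes). cKO replicate 1 alone was above both for 12 (92.3%, against 43.2%) and cKO replicate 2 for 8 (61.5%, against 40.5%). After removal of the trends with GC content and gene length in each library the medians were 0.29 in cKO replicate 1 and 0.02 in cKO replicate 2. The part of GC content and length in the difference was not tested beyond this.

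The 8 genes were Cox4i1, Cox6b1, Cox6c, Cox7a1, Cox7a2, Cox7b, Cox7c and Cox8a. Cox4i1, the regulatory subunit to which ATP binds, had 205.1 and 213.2 FPKM in WT and 282.4 and 216.5 in cKO, the second cKO value just above WT. Cox7c, a short membrane subunit, had 90.1 and 87.0 FPKM in WT and 156.7 and 96.4 in cKO. Its log2 fold change was 0.47 ± 0.24 (adjusted p = 0.338, limma). The difference of cKO replicate 1 from WT, 0.82, was 0.45 after removal of the GC and length trends. Cox6c had 24.8 and 26.0 FPKM in WT and 41.0 and 27.9 in cKO, and Cox8a had 250.6 and 251.6 FPKM in WT and 330.6 and 273.9 in cKO. In each of these genes cKO replicate 1 stood far above and cKO replicate 2 a little above WT. The nuclear-encoded subunits Cox5a and Cox5b overlapped between genotypes. Cox5a, which binds the matrix side, had 28.1 and 32.2 FPKM in WT and 37.4 and 30.6 in cKO, and Cox5b, which holds zinc, had 68.5 and 69.5 in WT and 93.9 and 68.0 in cKO. Cox6a1 (ENSMUSG00000041697, chromosome 5, 115345642 to 115348981) had the highest FPKM of all 93 genes, at 439.4 and 442.5 FPKM in WT and 478.0 and 440.9 in cKO. This rank rests on the gene length, which is 702 bases for Cox6a1 and 4237 for Atp5b. By reads over the libraries Atp5b had more, 122333 against 24791. The log2 fold change of Cox6a1, 0.06, turned to -0.04 as TPM and -0.14 after quantile normalization. Ndufa4 was the sole member of complex IV with both cKO libraries below both WT libraries, at 53.2 and 56.2 FPKM in WT and 47.5 and 44.7 in cKO (-0.24 ± 0.10, adjusted p = 0.258, limma).

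One paralog made up nearly all of most groups. Of the paralog pairs and trios, Cox6a1, Cox7b, Cox8a and Ndufa4 made up 100% of their groups' summed FPKM in every library, and Cox4i1 made up at least 99.6%. Cox6a2, Cox7b2, Cox8b, Cox8c and Ndufa4l2 had 0 reads in each library, which allows levels of up to 0.135 to 0.436 FPKM (3 reads, counting error only). Cox6a2 and Cox8b are heart and muscle forms, and Ndufa4l2 is known as a hypoxia-induced gene. Cox4i2, the form of lung and hypoxia, had 7 to 14 reads per library, and Cox6b2, the testis form, had 7 to 25. These 7 genes and Ndufb2 were the 8 members under the filter. Ndufb2 is listed at 0.715 to 0.986 FPKM from 366 reads in all, and 72.7% of its coding bases lie in exons of overlapping genes, one of them Braf, so its level is uncertain.

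Cox7a1, the heart and muscle form of subunit 7a, was the exception among the tissue forms (ENSMUSG00000074218, chromosome 7, 30184144 to 30186078). It was detected at 4.49 and 5.67 FPKM in WT and 9.29 and 6.65 FPKM in cKO, from 47, 58, 101 and 69 reads. All cKO values were above all WT values, with a log2 fold change of 0.55 ± 0.18, and this was the lowest p of the 85 genes (unadjusted 0.0267, adjusted 0.19, limma). Over the alternatives its adjusted p ranged from 0.0296, without cKO replicate 2, to 0.678. Its common paralog Cox7a2 had 65.3 and 69.9 FPKM in WT and 99.7 and 71.2 in cKO. Cox7a1 thus made up 6.43 and 7.51% of the pair in WT and 8.52 and 8.55% in cKO. The related Cox7a2l had 94.6 and 92.9 FPKM in WT and 117.9 and 91.6 in cKO, with overlap.

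**Figure D3:**
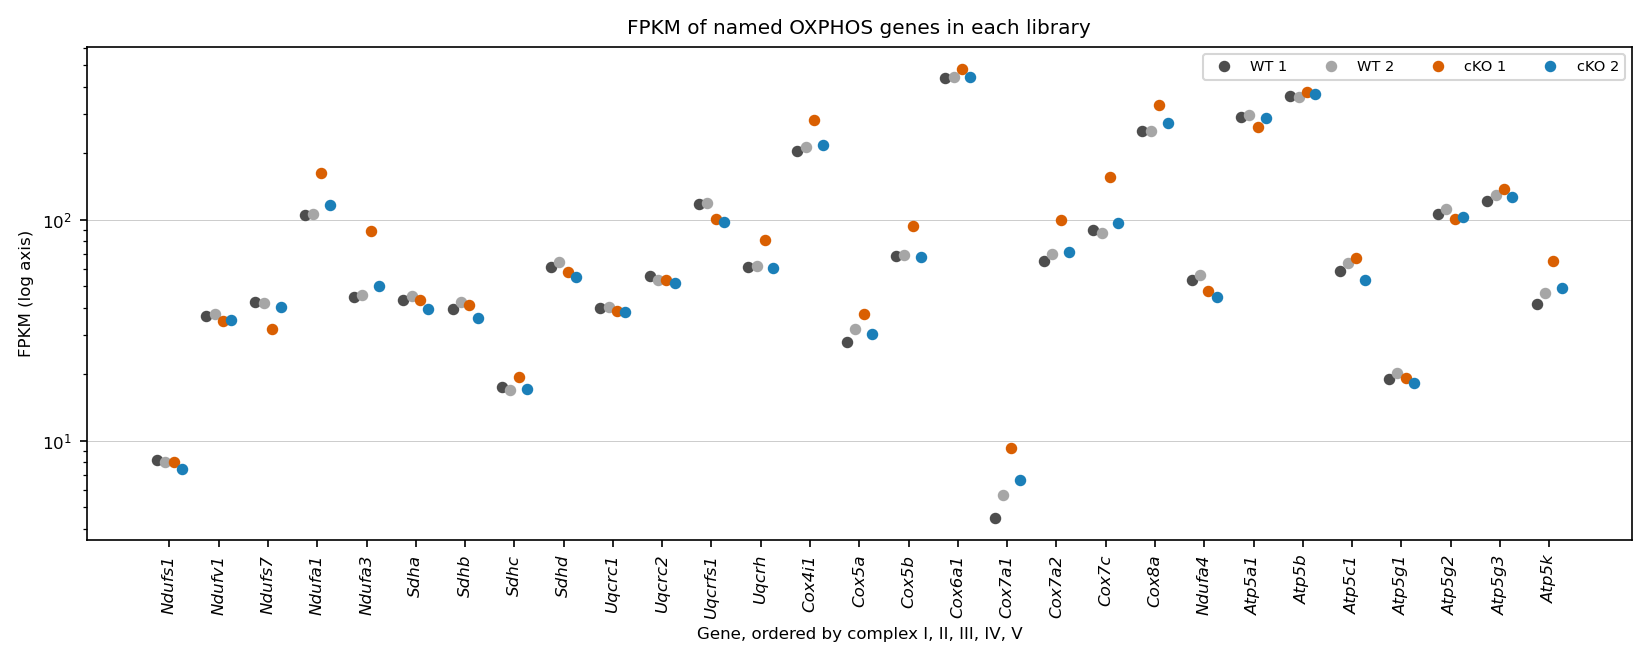
FPKM on a log axis (vertical) of named genes in each of the 4 libraries, ordered by complex (horizontal). Cox6a1 is highest at 439.4 to 478.0 FPKM, and for Ndufa3, Cox7c and Atp5k the point of cKO replicate 1 stands apart from the other 3.

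Complex V, ATP synthase, had 15 tested genes and none passed (lowest adjusted p = 0.302, limma). Its median log2 fold change was 0.08, with 0.14 in cKO replicate 1 and -0.02 in cKO replicate 2. As TPM the median was -0.02, against -0.09 over all tested genes. In a grouping also made after the values were seen, the 5 genes of the catalytic F1 part had a median of -0.01. The 10 genes of the peripheral stalk, the c ring and the small membrane subunits had a median of 0.18. In cKO replicate 1 these medians were 0.07 and 0.38, and in cKO replicate 2 they were -0.03 and -0.01. As TPM they were -0.04 and 0.27 in cKO replicate 1 and -0.10 and -0.08 in cKO replicate 2. Over all tested genes the medians as TPM were -0.12 in cKO replicate 1 and -0.07 in cKO replicate 2. Summed FPKM of the F1 part was 904 and 920 in WT and 914 and 908 in cKO, a range in which the genotypes overlapped.

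Atp5b, the catalytic beta subunit and the most abundant gene of complex V, had 362.3 and 359.1 FPKM in WT and 379.7 and 371.7 in cKO. With 29070 to 32683 reads per library it was among the best measured members, and its log2 fold change was 0.06 ± 0.10 (adjusted p = 0.759, limma), turning to -0.04 as TPM and -0.09 after quantile normalization. Atp5a1, the alpha subunit, had 290.4 and 297.1 FPKM in WT and 261.7 and 287.0 in cKO, both below WT (-0.10 ± 0.11, adjusted p = 0.616, limma). Atp5c1, the gamma subunit that turns inside F1, had 58.4 and 63.5 FPKM in WT and 67.0 and 53.2 in cKO, the cKO libraries on either side of WT. Atp5k, a small subunit of the membrane part (ENSMUSG00000050856, chromosome 5, 108433244 to 108434448), had 41.6 and 46.6 FPKM in WT and 65.4 and 49.3 in cKO. Both cKO values were above both WT values, and the log2 fold change was 0.36 ± 0.16 (adjusted p = 0.302, limma). The c ring is encoded by Atp5g1, Atp5g2 and Atp5g3, which give the same mature protein. Atp5g1 made up 7.37 to 7.79% of their summed FPKM, Atp5g2 39.0 to 43.0% and Atp5g3 49.2 to 53.5%. The lowest share of Atp5g2 and the highest of Atp5g3 were in cKO replicate 1. These shares rest on gene lengths of 4912, 1675 and 2181 bases, although the coding bases were 408, 439 and 423. Reads over the libraries were 7410, 13798 and 22013, so the share of Atp5g1 in the c ring transcripts is uncertain.

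Of the 2 genes set apart, Atp5sl had 7.55 and 7.23 FPKM in WT and 4.86 and 6.62 in cKO, both below WT, with a log2 fold change of -0.33 ± 0.15 (adjusted p = 0.295, limma). It was the lowest value of the 85 genes. Atp5s was near the filter at 1.28 and 0.950 FPKM in WT and 1.25 and 1.09 in cKO, with overlap.

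The call of individual members depended on cKO replicate 2. Without that library limma called 33 members higher and 3 lower (Atp5sl, Ndufs7 and Uqcrfs1), and 28.4% of all tested genes, 13.2% higher and 15.3% lower. The spread in that fit comes from the WT libraries alone, and the lone cKO library is assumed to vary like them. Of the 33, 13 were complex I subunits, 1 an assembly factor, 2 of complex III, 10 of complex IV and 7 of complex V, and no gene of complex II was among them. Without cKO replicate 1 limma called 0 members and 2.48% of all tested genes.

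Among these members the excess in cKO replicate 1 was larger in genes of short proteins. Across the 85 genes, the difference of cKO replicate 1 from WT had a Spearman rho of -0.535 with protein length, -0.342 with gene length and -0.237 with transcript GC content. For cKO replicate 2 these were -0.365, -0.0899 and 0.00363. Over all tested genes, rho in cKO replicate 1 was -0.152 with gene length and -0.384 with GC content. Protein length was not read for the other genes, so whether its relation is particular to these members was not tested. The genes share libraries and are not independent, so these are descriptions. The 43 tested genes with a protein under 150 residues, a limit set after the values were seen, had a median of 0.37 in cKO replicate 1 and -0.01 in cKO replicate 2. The 42 others had 0.10 and -0.06. The 43 genes had a median gene length of 1147 bases against 2249, and a GC content of 50.0% against 49.7%. After removal of both trends in each library the medians in cKO replicate 1 were 0.21 and 0.04.

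**Figure D4:**
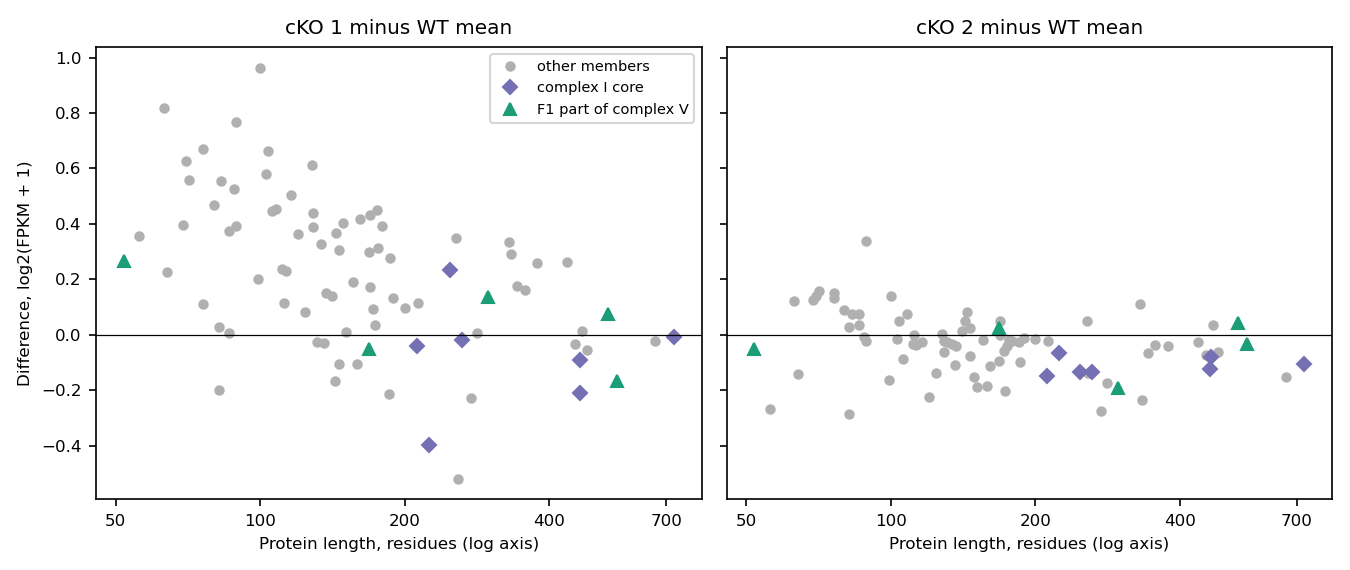
Difference of cKO replicate 1 (left) and cKO replicate 2 (right) from the WT mean on the log2(FPKM + 1) scale against protein length in residues on a log axis, for the 85 tested genes; symbols mark the complex I core and the F1 part of complex V. Points above 0.5 in the left panel all belong to proteins under 150 residues, and all 7 complex I core genes lie below 0 in the right panel.

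Promoters of these genes are known for sites of NRF1, of the ETS factor GABP (NRF2) and of YY1, and for ERR sites through which the PGC-1 coactivators act. RefSeq promoters of build GRCm38.p6, from 250 bases before to 50 after the start, were found for 77 of the 93 genes and read on both strands. The NRF1 motif (GCGCA, any base, GCGC) was in 19 (24.7%), against 13.4% of 7452 tested protein-coding genes and 5.19% of all 27025 genes with a promoter. The ETS motif CCGGAAG was in 18 (23.4%), against 23.8 and 9.93%, and the YY1 motif (AAGATGG and then CGG) in 7 (9.09%), against 2.98 and 0.995%. The ERR motif CAAGGTCA was in 4 (5.19%), against 1.19 and 1.76%, the CREB motif TGACGTCA in 4 (5.19%), against 3.9 and 2.03%, and the E-box CACGTG in 7 (9.09%), against 12.5 and 8.09%. The 19 genes with the NRF1 motif had a median difference of 0.12 in cKO replicate 1 and -0.06 in cKO replicate 2, and the 54 tested genes without it 0.27 and -0.02.

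The 250 bases before the start are printed for 4 genes described above, chosen after their values were seen: the most abundant transcript (Cox6a1, chr5:115348959-115349208), the most abundant of complex II (Sdhd, chr9:50603850-50604099), the highest fold change of complex V (Atp5k, chr5:108434400-108434649) and the gene whose cKO libraries were both well below WT (Uqcrfs1, chr13:30545317-30545566). All lie on the minus strand and are written 5′ to 3′ along the gene. Capitals mark NRF1 motifs in the first 3, an ETS motif on the opposite strand near the end of Cox6a1 and Sdhd, and the CREB motif in Uqcrfs1, which had no NRF1 motif in this window.
Cox6a1: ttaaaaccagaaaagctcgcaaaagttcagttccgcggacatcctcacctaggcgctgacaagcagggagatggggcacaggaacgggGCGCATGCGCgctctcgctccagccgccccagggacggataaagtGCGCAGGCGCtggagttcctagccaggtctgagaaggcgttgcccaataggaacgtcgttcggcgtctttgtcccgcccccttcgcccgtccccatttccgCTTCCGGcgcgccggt
Sdhd: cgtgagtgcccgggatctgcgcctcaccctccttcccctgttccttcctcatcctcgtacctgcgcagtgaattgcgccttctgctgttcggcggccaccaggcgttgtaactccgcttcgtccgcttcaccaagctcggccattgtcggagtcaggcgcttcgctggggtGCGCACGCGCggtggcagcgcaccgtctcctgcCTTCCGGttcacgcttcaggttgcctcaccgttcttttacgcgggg
Atp5k: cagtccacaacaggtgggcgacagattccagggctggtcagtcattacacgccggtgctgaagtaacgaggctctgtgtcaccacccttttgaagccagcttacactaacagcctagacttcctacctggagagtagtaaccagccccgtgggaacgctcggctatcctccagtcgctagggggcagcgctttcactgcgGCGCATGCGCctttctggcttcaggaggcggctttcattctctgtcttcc
Uqcrfs1: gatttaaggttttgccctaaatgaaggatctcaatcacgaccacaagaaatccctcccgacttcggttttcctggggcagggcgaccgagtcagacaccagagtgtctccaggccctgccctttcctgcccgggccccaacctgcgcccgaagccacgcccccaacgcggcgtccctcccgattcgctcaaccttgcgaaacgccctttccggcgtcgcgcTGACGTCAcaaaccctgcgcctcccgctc
Cox6a1 holds 2 NRF1 motifs and Sdhd and Atp5k 1 each, while their log2 fold changes were 0.06, -0.14 and 0.36. A match describes letters and does not show binding.

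The 13 mitochondrially encoded subunits, the partners of these proteins, were read from the same libraries. None passed (lowest adjusted p = 0.208, limma), their median log2 fold change was 0.23, and both cKO libraries were above both WT libraries for 11 of 13 (84.6%, against 27.2% of all tested genes). Their medians were above 0 in both cKO libraries, at 0.29 and 0.17. mt-Cytb, the cytochrome b of complex III, had 818 and 893 FPKM in WT and 1040 and 961 in cKO. mt-Nd6, of the complex I membrane arm, had 149.2 and 151.2 FPKM in WT and 195.5 and 173.3 in cKO. mt-Co1, the catalytic subunit of complex IV, was the most abundant and overlapped, at 2129 and 2248 FPKM in WT and 2030 and 2332 in cKO. mt-Atp8 alone had both cKO libraries below, at 4.26 and 13.3 FPKM in WT and 3.14 and 3.79 in cKO, from 97 reads in all. These transcripts have a median GC content of 37.1%, and after removal of the GC and length trends the median of cKO replicate 1 was -0.04 and that of cKO replicate 2 was 0.13. Nuclear copies of mitochondrial DNA took 24.2 to 46.3% of the joint reads of mt-Co2, mt-Atp6, mt-Co3, mt-Nd3 and mt-Nd4l, so the levels of these 5 genes are uncertain.

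Other mitochondrial genes were read as lists. The 12 lists held 126 genes, 118 tested, of which none passed (limma, lowest adjusted p = 0.0552). At an unadjusted p under 0.05, which 19.8% of all tested genes met, there were 4 higher and 11 lower, so their share was below that of all genes. The 10 genes of iron-sulfur cluster assembly, which supplies complexes I, II and III, had a median log2 fold change of -0.20, with -0.19 in each cKO library. Both cKO libraries were below both WT libraries for 8 of the 10 (80.0%, against 28.7% of all). Iscu, the scaffold on which clusters are built, had 17.6 and 17.7 FPKM in WT and 14.1 and 14.5 in cKO (-0.29 ± 0.09, adjusted p = 0.165, limma). Glrx5, which carries clusters on, had 43.2 and 40.1 FPKM in WT and 27.7 and 36.4 in cKO, and Nfu1 alone was above WT, at 5.22 and 5.25 against 6.56 and 6.10 FPKM. The 17 genes of the TCA cycle and pyruvate dehydrogenase had a median of -0.06, with -0.06 in cKO replicate 1 and -0.05 in cKO replicate 2. Both cKO libraries were below both WT libraries for 7 of 17 (41.2%, against 28.7% of all) and above for 2 (11.8%, against 27.2%). The 2 above were Pdha1, of pyruvate dehydrogenase, at 45.0 and 44.9 FPKM in WT and 55.0 and 48.3 in cKO, and Idh3b, at 28.1 and 27.0 in WT and 32.8 and 29.4 in cKO. Among the 7 below, Idh2 had 8.47 and 9.04 FPKM in WT and 6.66 and 6.75 in cKO (-0.34 ± 0.09, adjusted p = 0.126, limma), and Suclg1, of succinyl-CoA synthetase, had 22.1 and 24.1 in WT and 17.2 and 18.2 in cKO.

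Assembly factors outside the name rule were read by complex, with no test between the lists. The 20 tested genes for complex IV had a median of 0.08, with 0.14 in cKO replicate 1 and -0.00 in cKO replicate 2. The 5 for complex III had -0.04, with the cKO libraries on opposite sides at 0.17 and -0.14. The 6 for complex I had -0.13, with -0.09 and -0.15, the 4 for complex II -0.12, with -0.12 and -0.06, and the 3 for complex V -0.20, with -0.12 and -0.28. Bcs1l, which inserts the Rieske protein Uqcrfs1 into complex III, had 4.196 and 4.441 FPKM in WT and 3.21 and 2.99 in cKO (-0.38 ± 0.09, adjusted p = 0.123, limma). Ttc19, which clears fragments of the Rieske protein, had 6.47 and 6.57 FPKM in WT and 8.23 and 6.85 in cKO, both cKO values above WT, and the other 3 tested factors overlapped. Electron carriers and subunits outside the name rule had a median of 0.19 over 7 genes, with 0.26 in cKO replicate 1 and -0.01 in cKO replicate 2. Coenzyme Q synthesis had -0.10 over 12 genes, with -0.07 and -0.06. The enzymes that feed the quinone pool had 0.01 over 5, with 0.19 and -0.16.

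The regulators of mitochondrial biogenesis had a median of -0.04 over 16 tested genes, with -0.04 in cKO replicate 1 and -0.06 in cKO replicate 2. Ppargc1b, the coactivator PGC-1beta, which with ERR and NRF factors raises transcription of these genes, had the lowest p of all lists. It had 1.84 and 1.69 FPKM in WT and 0.247 and 0.504 FPKM in cKO, from 144, 129, 20 and 39 reads. The log2 fold change was -1.01 ± 0.15 on the log2(FPKM + 1) scale and was not called (limma, adjusted p = 0.0552). It passed under 9 of the 19 settings that gave a value, with voom among them (adjusted p = 0.0154, log2 fold change -2.31), and the adjusted p ranged from 0.014 to 0.186. Ppargc1a was at 0 in 3 libraries. The nuclear factors overlapped or lay close, with Gabpa at 14.4 and 15.9 FPKM in WT and 16.5 and 14.4 in cKO, and Esrra at 25.3 and 22.5 in WT and 23.5 and 24.5 in cKO. Nrf1 had 7.99 and 7.83 FPKM in WT and 7.30 and 6.75 in cKO, both cKO values below WT (-0.15 ± 0.09, adjusted p = 0.389, limma). Tfam, which binds mitochondrial DNA and starts its transcription, had 10.9 and 12.7 in WT and 11.3 and 10.4 in cKO.

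The 2 ribosomal protein families give a scale for these medians. The 77 tested mitochondrial ribosomal proteins had a median log2 fold change of -0.04, with 0.04 in cKO replicate 1 and -0.11 in cKO replicate 2. The 88 tested cytosolic ribosomal proteins had a median of 0.23, with 0.37 and 0.07, and both cKO libraries above both WT libraries for 67 (76.1%, against 27.2% of all tested genes). The medians of complex IV, 0.43 and 0.07, were close to the latter and those of complex I, 0.20 and -0.04, lay between the families. No test of these differences between families was made.

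Some members cannot be separated from near-identical copies or overlapping genes. Pseudogenes with at least 95% identity over at least 90% of their length were found for 19 members. They took 50.1% of the joint reads for Ndufa12, 23.5% for Ndufab1, 21.0% for Atp5l and 19.5% for Atp5g1, and under 5% for the rest. Exons shared with other genes covered 65.6% of the exon bases of Ndufaf2, 39.0% of Ndufb6, 35.6% of Atp5o, and a smaller share of Ndufa13. The levels of these 8 genes are uncertain, and so is that of Cox5a, with 25.3% of its coding bases shared.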

How the data were processed

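RNA sequencing was analysed in 2 WT and 2 cKO libraries. The authors deposited 1 table with FPKM per gene and library, and gene length. Counting with featureCounts 1.5.0-p3 on GRCm38 (mm10) is recorded in the submitters' processing notes. For the aligner, annotation release and strand setting nothing is given in the sources used here; antisense and overlapping genes therefore cannot be told apart. Multiplied by length, 100% of the FPKM values were whole multiples of a step within 0.01 read, which gave the reads behind each value.

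limma 3.58.1 in R 4.3.3 was fitted to log2(FPKM + 1) of 10562 genes whose mean reached 1 FPKM, with a variance trend, no block, and Benjamini-Hochberg adjustment at 0.05. The pseudocount of 1 makes fold changes of low genes too small. The smallest two-sided p of an exact permutation test is 0.333 here. Errors are the SD of 2 libraries or the SE of the fit. On simulated reads for cKO against WT with 10486 genes tested, limma recovered 38.1% of the genes changed 1.5-fold. It recovered 95.4% of those changed 2-fold and 98.4% of those changed 4-fold, and called 35 of 10296 unchanged genes. The simulated libraries had a fixed spread, and no library-wide difference such as that between the cKO libraries was put in. The shares hold for that setting and do not show how many such changes would be found here. Alternatives were other pseudocounts, filters, scalings and variance models, protein-coding genes only, GC and length corrections, a replicate block, voom on the recovered reads and the omission of each library.

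GC content and protein length came from GENCODE M21, in which all 93 members were found, 79 with the same coordinates. Copies were searched with BLAST 2.17.0 against pseudogene transcripts of at least 200 bases. Lists and medians have no test of their own. Members and lists were chosen with earlier results of these data known. Genes were named by rule: in each complex the highest and lowest fold change and the highest level, all 4 Sdh genes, paralog groups and core subunits, and the mitochondrially encoded genes. The values of 1 gene that the rule names are not reported here. Ndufs7 and Ndufa1 came under that rule; Cox6c, Cox7c, Cyc1, Bcs1l, Ppargc1b, Uqcrq and the other genes named from the lists were chosen after their values were seen.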

Additional observations from a re-analysis of the deposited data

How the results depend on the processing

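Of 19 alternatives, 18 called 0 members in either direction, as did the test itself, the lowest adjusted p of a member ranging from 0.073 to 0.678. Without cKO replicate 2, limma called 33 higher and 3 lower, so counts over the omission of single libraries ranged from 0 to 33 and from 0 to 3. The median log2 fold change over these omissions ranged from -0.033 to 0.23 for all members, from -0.041 to 0.20 for complex I subunits, from -0.046 to 0.22 for its assembly factors, from -0.16 to -0.0080 for complex II, from -0.067 to 0.13 for complex III, from 0.075 to 0.43 for complex IV and from -0.017 to 0.14 for complex V. The upper ends are without cKO replicate 2 and the lower ends without cKO replicate 1. As TPM, which moved the median of all genes to -0.09, the medians were -0.18 for complex II and -0.016 for complex V; the cause is the larger summed FPKM of the cKO libraries. The sign also turned for complex III after quantile normalization (-0.02), and for complex I assembly factors (-0.05) and complex III (-0.04) after GC and length correction. For 39 named genes, 15 had the opposite sign under at least 1 alternative, 7 of them as TPM.

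With the replicate block limma called 0 members and 227 genes in all, against 113 without it. The numbers are shared by name only, and same-numbered libraries did not deviate together (r = -0.093 over 10562 genes). Over all genes, voom called 543. The count model of edgeR, listed among the alternatives, was not run, since the deposited values are FPKM. Depth limits the low genes most, as Cox7a1 rests on 47 to 101 reads and Ppargc1b on 20 to 144.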
